A study of Mus musculus with 2 samples.

Results

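Magnocellular neurons of the preoptic region that carry oxytocin (Oxt) or vasopressin (Avp) messenger RNA made up 66 of 18368 cell barcodes in 2 single-cell RNA libraries. They were chosen by their counts: a neuron gate of at least 2000 genes, under 20% mitochondrial UMIs, at least 10 UMIs of Snap25 and Syt1 together and at most 1 UMI of the oligodendrocyte genes Mog and Ermn, then at least 1 UMI of Otp or Sim1 and at least 100 UMIs of Oxt and Avp together. A UMI is a barcode that marks 1 captured RNA molecule. The tissue was the preoptic area of wild-type C57BL/6J mice of 9 to 10 weeks, with males and females pooled within a library. One library (SD) came from mice deprived of sleep for 6 h, and the other (SD+RS) from mice that had 2 h of recovery sleep after the same 6 h of deprivation, so both groups had lost sleep and no undisturbed group was sampled. The study asked which preoptic neurons are active during rebound sleep. The rule kept 30 of 3923 gated neurons in SD and 36 of 4149 in SD+RS. Of the 66 cells, 49 had more Oxt than Avp UMIs (Oxt-led, 20 in SD and 29 in SD+RS) and 17 had more Avp (Avp-led, 10 and 7).

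Magnocellular neurons are the large neurosecretory cells of the supraoptic and paraventricular nuclei and of accessory groups in the preoptic area. Their axons run to the posterior pituitary, where they release oxytocin, which drives milk ejection and uterine contraction, or vasopressin, which makes the kidney retain water. Each hormone is cut from a precursor that also holds its carrier protein, a neurophysin, and the lineage depends on the transcription factors Otp, Sim1 with its partner Arnt2, and Pou3f2. Cell size and projection were not measured here, so the cells are called magnocellular from these markers alone.

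Each group was 1 library with no replicate, and how many mice were pooled is not stated in the sources used here. No difference between the libraries could therefore be set against a spread between mice, no p-value was computed, and all intervals below are 95% intervals of counting error over UMIs or cells only. The libraries held 10262 and 8106 barcodes and 132191585 and 123500649 UMIs, and 23 barcode sequences occurred in both, none of them among the 66 cells. The sexes were mixed differently. Of the 30 SD cells, 10 had Xist UMIs and no Y-linked UMI, 13 had Y-linked UMIs only and 7 had both, against 31, 4 and 1 of the 36 SD+RS cells. The other gated neurons were split 1344 to 2075 in SD and 3044 to 846 in SD+RS between Xist only and Y-linked only. Condition, library and sex mix cannot be told apart in values that compare the libraries, and values within each sex are given beside those of the early genes, the peptides and the genes described in most detail.

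Oxt and Avp are neighbours in the genome. In mm10 with the GENCODE vM21 annotation, Oxt lies on chromosome 2 from 130576173 to 130577054 on the plus strand, and Avp on chromosome 2 from 130580620 to 130582554 on the minus strand, so the genes point towards each other with 3565 bases between their ends. The 250 bases before each RefSeq start are shown because the Oxt-led and Avp-led cells are told apart by which of these neighbours they transcribe. They are the RefSeq sequences of GRCm38.p6, at chr2:130575919-130576168 on the plus strand and chr2:130582589-130582838 on the minus strand, written 5′ to 3′ along the gene. The RefSeq starts lie upstream of the GENCODE starts given above, and distances below count from the RefSeq starts. Capitals mark TGACC (or GGTCA, its other strand), an element that nuclear receptors bind, CACGTG, an E-box, and ATAAA, the core of a TATA box.
Oxt: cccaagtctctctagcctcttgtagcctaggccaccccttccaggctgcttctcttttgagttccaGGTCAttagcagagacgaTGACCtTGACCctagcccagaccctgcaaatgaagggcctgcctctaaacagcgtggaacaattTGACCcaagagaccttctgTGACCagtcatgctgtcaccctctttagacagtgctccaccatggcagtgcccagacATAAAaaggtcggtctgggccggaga
Avp: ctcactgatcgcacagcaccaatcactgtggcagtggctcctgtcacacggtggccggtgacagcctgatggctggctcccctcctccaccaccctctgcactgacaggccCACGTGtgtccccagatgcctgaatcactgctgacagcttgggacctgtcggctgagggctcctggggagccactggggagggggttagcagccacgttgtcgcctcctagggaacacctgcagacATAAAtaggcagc
TGACC stood 5 times in the Oxt stretch on either strand, with first bases 184, 166, 160, 102 and 83 bases before the start, and not in the Avp stretch. At least 1 copy was found in 35.23% of 32817 RefSeq promoters of the same length, while the direct repeat of TGACC with a single T between the copies, which is the pair at 166 and 160 bases, was found in 3 of them. CACGTG stood once in the Avp stretch (6.02% of promoters) and not in that of Oxt, and the AP-1 form TGANTCA once in that of Avp (6.75%). ATAAA stood once in each (37.26%), with its first base 26 bases before the Oxt start and 13 before the Avp start. The cyclic AMP element TGACGTCA (1.55%) and the octamer ATTTGCAT (1.6%) stood in neither. Such matches describe letters and show no binding.

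The gate left a wide gap around its threshold. Among neurons with Otp or Sim1 UMIs, the lowest counts of Oxt and Avp inside the gate were 353 and then 2615 UMIs in SD, and 1792 and then 2637 in SD+RS. The highest counts outside it were 8 and 7 UMIs in SD and 13 and 5 in SD+RS. Otp had at least 1 UMI in 66 of 66 cells, with 1 to 39 UMIs (median 16) per SD cell and 4 to 37 (median 16.5) per SD+RS cell, and Sim1 in 29 of 30 and 33 of 36. A different group of neurons carried Avp without either factor: 16 SD and 7 SD+RS neurons had at least 100 UMIs of Oxt and Avp and no Otp or Sim1 UMI. Of them 15 and 7 were Avp-led, and 15 and 7, not all the same cells in SD, had more Gal UMIs (galanin) than Oxt and Avp together. Gal ran from 212 to 1484 UMIs in those of SD and from 273 to 704 in those of SD+RS. The SD cell just inside the threshold, with 349 Avp, 4 Oxt and 540 Gal UMIs and 1 UMI of Otp, resembled them more than the other 65 cells, and values that it moves most (Gal, Tac1) or calls that end without it are given with and without it. No value of the 4 marker genes is used as evidence below, since they chose the cells.

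Oxytocin RNA took up a large share of the molecules in Oxt-led cells. Oxt UMIs ran from 5331 to 50568 (median 30018) in the 20 SD cells and from 1792 to 52469 (median 27634) in the 29 SD+RS cells, which was 36.7% and 39.5% of all their UMIs. Vasopressin RNA took a smaller share of an Avp-led cell, with 349 to 8501 Avp UMIs (median 3970) in 10 SD cells and 4905 to 20864 (median 8334) in 7 SD+RS cells, or 12.5% and 19.6% of UMIs. These values describe the gate, and the cells of the libraries overlapped in both peptides. The 30 and 36 cells held 90.9% and 96.6% of all Oxt UMIs of their libraries and 80.95% and 89.0% of all Avp UMIs.

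**Figure D1:**
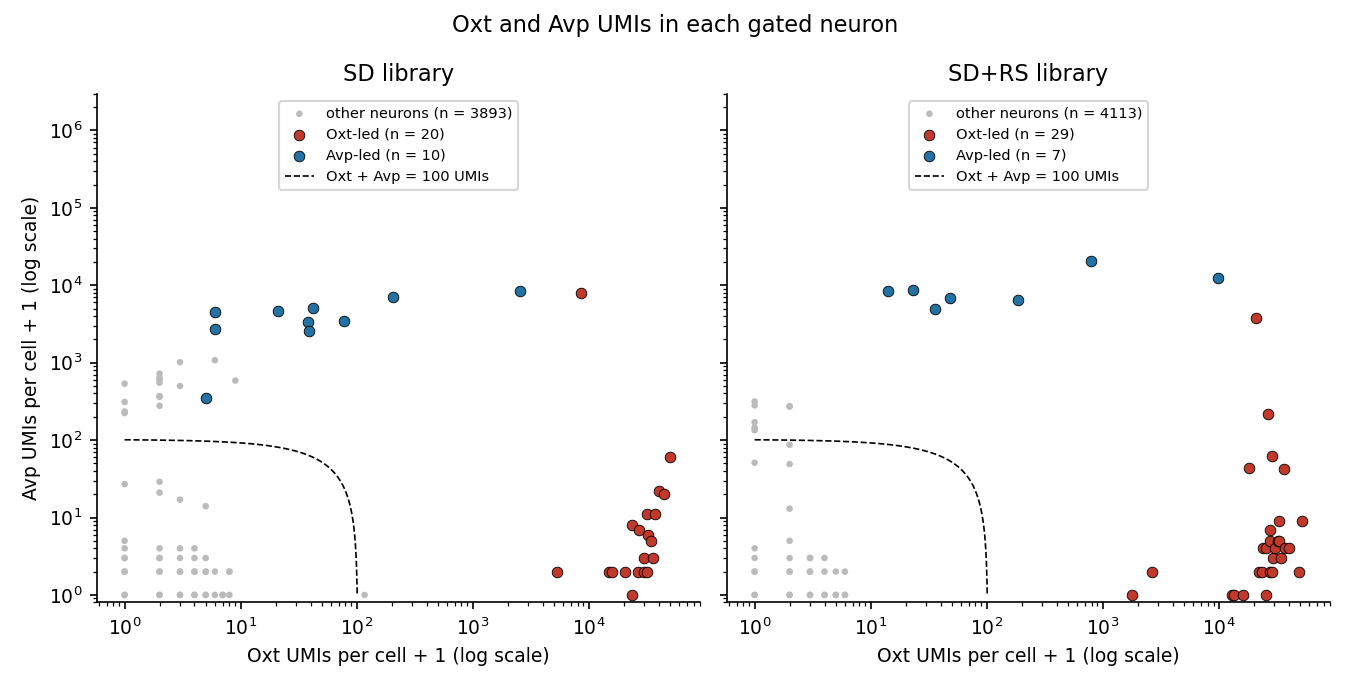
Oxt UMIs (x axis) against Avp UMIs (y axis) in each gated neuron, both plus 1 on log scales, for the SD library (left) and the SD+RS library (right). Red points are Oxt-led cells, blue points Avp-led cells, grey points other gated neurons, and the dashed line marks 100 UMIs of both peptides together. The Oxt-led cells sit at the far right with few Avp UMIs, 4 cells have more than 1000 UMIs of both peptides, and grey points above the line have no Otp or Sim1 UMI.

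Most cells held 1 hormone far above the other. Avp in Oxt-led cells had a median of 3 UMIs in each library, and Oxt in Avp-led cells a median of 37.5 in SD and 47 in SD+RS. Free RNA in the droplets gives some of these UMIs: an Oxt UMI was found in 55.5% and 45.1% of other gated neurons (median depth 22184 and 21730 UMIs) and in 39.4% and 26.9% of astrocyte-gated cells (1964 and 1302 cells, median depth 3527 and 3182), which should lack the gene. For Avp these shares were 14.9% and 12.35% of other neurons and 6.26% and 4.61% of astrocyte-gated cells. The free RNA level was set at the astrocyte-gated share, scaled by a cell's UMIs other than Oxt and Avp. It would give an Oxt-led cell a median of 0.945 Avp UMIs in SD and 0.586 in SD+RS, and an Avp-led cell 4.03 and 3.23 Oxt UMIs. Oxt was a larger share of UMIs in astrocyte-gated cells (0.0138% and 0.009%) than in the deeper other neurons (0.0039% and 0.0027%). The scaled Oxt values are thus higher than the share in other neurons would give, and a multiple of them finds fewer cells. At least 20 Avp UMIs stood in 3 of 20 SD and 5 of 29 SD+RS Oxt-led cells, and at least 20 Oxt UMIs in 7 of 10 and 6 of 7 Avp-led cells. More than 10 times the scaled level of Avp stood in 5 of 20 and 6 of 29 Oxt-led cells. More than 10 times that of Oxt stood in 3 of 10 and 5 of 7 Avp-led cells. Among these were 4 cells with over 1000 UMIs of both peptides, 2 in each library. In SD these were an Oxt-led cell with 8487 Oxt and 8051 Avp UMIs and an Avp-led cell with 2539 and 8501, and in SD+RS an Avp-led cell with 9932 and 12577 and an Oxt-led cell with 21056 and 3725. None of the 66 cells was called as a doublet by Scrublet, which called 238 (6.07%) and 155 (3.74%) of the gated neurons.

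The magnocellular cells were deeper than other neurons at the median. Their median was 65245 UMIs in SD and 65116 in SD+RS, against 22184 and 21730 in other neurons, and 39364 and 41474 without Oxt and Avp UMIs. Oxt-led cells were deeper than Avp-led cells, at medians of 81341 against 33615 UMIs in SD and 66788 against 42865 in SD+RS. They had a median of 6995 and 7046 genes against 5620 and 5531 in other neurons. Thinned to 4000 UMIs other than Oxt and Avp, the expected medians were 2064.8 and 2085.9 genes against 2133 and 2124.7. At equal depth the cells thus had no more genes than other neurons. Across cells Oxt UMIs went with all other UMIs, with Pearson's r of 0.80 over 20 Oxt-led SD cells and 0.85 over 29 SD+RS cells, a description of cells that share a library and a capture efficiency.

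Markers of other cells were mixed, and the defining ones were at or near 0. Gfap, Slco1c1, Pdgfra, Cspg4, C1qc, Cx3cr1, Rgs5 and Acta2, which mark astrocytes, precursors, microglia and mural cells, had 0 UMIs in all 66 cells, and so had Lhx1, Nms and Six6 of the suprachiasmatic nucleus, whose neurons also make Avp. The 9 suprachiasmatic markers summed to 17.5 and 23.9 CPM against 149.4 and 175.5 in other neurons. CPM are UMIs per 1000000 UMIs other than Oxt and Avp, summed over the cells of a class. The 10 astrocyte markers summed to 180 and 178 CPM against 447 and 398, mostly from Aldoc and Slc1a2. The 10 markers of endothelial and mural cells summed to 1059 and 1098 CPM against 1047 and 1051, almost all from Bsg, which neurons also transcribe. Oligodendrocyte markers summed to 123.5 and 95.5 CPM against 154 and 107, and microglia markers to 31.9 and 35.5 against 50.1 and 39.9, with the 1 microglia gene tested at log2 0.44 and 0.60 and not called.

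Against all other gated neurons, 366 of 8100 genes tested were at least 2-fold higher in both libraries (4.52%) and 508 were at least 2-fold lower (6.27%). A gene counts as called below when it passed that fold in both libraries. Genes were tested where at least 20 UMIs were found in these cells, or expected from the level of other neurons, in each library, so the direction of the rarest ones was partly set by that choice. Over all tested genes the median log2 ratio was −0.10 in SD and −0.09 in SD+RS. With Oxt and Avp UMIs left in the denominator every ratio fell by 0.58 in SD and by 0.67 in SD+RS, so ratios between 0 and these amounts changed sign on that scale. Against the 296 and 258 other neurons with Otp or Sim1 UMIs, a closer set, 327 of 8036 genes were called higher (4.07%) and 450 lower (5.6%).

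Among the 12 transcription factors of the lineage list, 10 were tested, of which 5 were called higher and 5 lower. Otp and Sim1 belong to the gate. Arnt2, the partner of Sim1, was at 132 CPM in SD and 130 in SD+RS against 55.6 and 53.6 in other neurons. Pou3f2 (Brn2), which the lineage needs to mature, lies on chromosome 4 from 22482780 to 22488366 on the minus strand. Its level was 352 and 241 CPM against 27.5 and 29.6, or a log2 difference of 3.68 (3.53 to 3.82) and 3.02 (2.86 to 3.19). It was found in 29 of 30 and 36 of 36 cells, from 0 to 667 CPM (median 339) per SD cell and from 73.3 to 510 (median 220) per SD+RS cell, where the median cell of the other neurons had none. Foxp1, a forkhead factor, was at 195 and 172 CPM against 44.3 and 44.4. The factors called lower were Pou3f1, Nkx2-1, Rorb, Zfhx3 and Meis2. Nkx2-1, which patterns the ventral hypothalamus, had 0 UMIs in SD and 1 in SD+RS against 35.7 and 36.4 CPM in other neurons, and Zfhx3 was at 61.4 and 34.8 CPM against 197 and 184.5. With all UMIs in the denominator Arnt2 stayed above other neurons but under 2-fold, at 0.66 and 0.61.

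Of 18 other peptide and granule-protein precursors tested, 1 was called higher and 11 lower. The higher one was Pdyn, the precursor of the opioid dynorphin that vasopressin cells are known to store with their hormone, at 160 and 177 CPM against 13.9 and 12.9, or 3.52 (3.30 to 3.74) and 3.78 (3.58 to 3.97) on the log2 scale. The lower ones included Trh, Crh, Sst, Penk, Nts, Cartpt and Tac1, which other hypothalamic neurons release. Sst had 3 and 1 UMIs in these cells and stood at 187 and 223 CPM in other neurons, and Penk had 18 UMIs in 1 SD cell and 1 UMI in SD+RS against 152 and 192 CPM. Gal was not called, at 783.5 and 495 CPM against 1045 and 847, and its range over cells, 0 to 28520 CPM in SD and 0 to 3609 in SD+RS, was wide. The highest of these was the Gal-rich SD cell at the threshold, without which SD stood at 358.5 CPM and a log2 ratio of −1.54 in place of −0.42.

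Genes of hormone processing and of granules went both ways. Of 21 tested genes of that list, 3 were called higher and 5 lower, with median log2 ratios of 0.11 and −0.25, and with all UMIs in the denominator 1 higher, Pcsk1, and 6 lower. Pcsk1, the convertase that opens prohormones, was at 294 and 289 CPM against 27.3 and 25.6, or 3.43 (3.27 to 3.59) and 3.50 (3.35 to 3.65) on the log2 scale. It was found in 29 of 30 SD cells, from 0 to 987 CPM with a median of 272, and in 36 of 36 SD+RS cells, from 101 to 582 with a median of 288. Pam, which adds the C-terminal amide that oxytocin and vasopressin carry, was at 697 and 612 CPM against 182 and 196. It was found in every cell, from 158 to 1411 CPM in SD and from 79.0 to 1786 in SD+RS. Ptprn, a granule membrane protein, was at 633 and 588 CPM against 282 and 286. Called lower were Chga, Scg2 and Vgf, which other neurons store in their granules, with Baiap3 and Rab3b of granule release. Scg2 was at 121 and 108 CPM against 880 and 968. Cpe, the carboxypeptidase of the same granules, was at 678 and 649 CPM against 496 and 501, a log2 ratio of 0.45 and 0.37 that became −0.12 and −0.30 with all UMIs in the denominator.

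Genes of protein folding in the endoplasmic reticulum, where hormone precursors fold, lay above their level in other neurons. The list of 22 genes summed to 5346 and 5588 CPM against 3235 and 2973, and 4 of 20 tested were called higher and 0 lower (with all UMIs in the denominator 1, Creb3l2, and 0). Their median log2 ratio was 0.77 and 0.81, against −0.10 and −0.09 over all tested genes, and 0.20 and 0.14 with all UMIs in the denominator. Manf, a secreted stress protein of the reticulum, was at 575 and 719 CPM against 241 and 200, and ranged from 0 to 1184 CPM over SD cells and from 94.0 to 1355 over SD+RS cells. Dnajb9, a co-chaperone, was at 266 and 329.5 CPM against 102 and 96.9, and Sdf2l1, another, at 189 and 236 against 80.7 and 61.5. The largest ratio was that of Creb3l2, a membrane-bound transcription factor that is cut free in secretory cells, at 43.8 and 40.9 CPM against 4.63 and 3.16 (log2 3.24 and 3.70). Hspa5 (BiP), the main chaperone, was at 654 and 591 against 441 and 401, and its ratio of 0.57 and 0.56 turned to −0.01 and −0.11 with all UMIs in the denominator.

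Most cells carried a marker of glutamate, and the GABA genes were low in sum. Slc17a6 (VGLUT2), the vesicular glutamate transporter, had UMIs in 90.0% and 94.4% of cells at 147.5 and 128 CPM, against 29.1% of other SD neurons. Those were shallower, at a median of 22184 UMIs other than Oxt and Avp against 39364 in the SD magnocellular cells. The part of depth in these shares was not tested. As a level it was not called higher (log2 0.61 and 0.45), and it was lower than in the other Otp or Sim1 neurons, which stood at 204 and 235 CPM. The GABA genes Gad1, Gad2 and Slc32a1 were called lower, with Gad2 at 55.0 and 69.6 CPM against 702.5 and 717, and Slc32a1 at 10.4 and 7.5 against 143 and 140. A minority differed: 9 of 66 cells had at least 10 Gad2 UMIs. Nos1, the neuronal nitric oxide synthase, was at 230 and 207 CPM against 54.8 and 49.0 and was called higher. So was Th, the tyrosine hydroxylase of catecholamine synthesis, at 51.8 and 53.9 against 13.4 and 16.2, whereas Ddc, the next enzyme of that path, was called lower, at 4.78 and 2.73 against 32.8 and 38.2.

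A list of calcium-binding genes and markers of large or of small neurosecretory neurons was looked at next. Its values compare the cells with all other gated neurons, so they cannot tell large from small neurosecretory neurons. Calb1, a calcium buffer, was at 766 and 833 CPM against 251 and 271 (log2 1.61 and 1.62), and Kcnmb4, a subunit of the large-conductance potassium channel, at 230 and 247 against 21.9 and 24.0 (3.39 and 3.36). Kcnmb4 ranged from 0 to 539 CPM over SD cells and from 93.8 to 466 over SD+RS cells. Reln, a secreted matrix protein, had 0 UMIs in all 66 cells against 41.4 and 31.9 CPM in other neurons, and Cnr1, the cannabinoid receptor, was at 30.3 and 19.8 against 133.5 and 121. Of 8 tested genes of this list 4 were called higher and 2 lower, and 2 stayed called higher with all UMIs in the denominator.

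Receptor genes were mixed. Of 27 listed, 20 in SD and 17 in SD+RS had at least 1 UMI and 9 had enough to be tested, with 3 called higher and 3 lower, and the list summed to 591 and 534 CPM against 653 and 585 in other neurons. Rxfp3, the receptor of relaxin-3, was at 80.5 and 79.1 CPM against 4.68 and 3.82 (log2 4.11 and 4.37), in 26 of 30 and 29 of 36 cells. Oprk1, the receptor of dynorphin, was at 158 and 153.5 against 43.2 and 34.7, and Cckar, the receptor through which cholecystokinin excites oxytocin cells, at 52.6 and 51.8 against 9.13 and 5.65. Nr3c1, the glucocorticoid receptor, was called lower at 7.97 and 3.41 CPM against 67.3 and 65.2, as were Prlr and Esr1, the prolactin and oestrogen alpha receptors. Oxtr, the oxytocin receptor, and Avpr1b had 0 UMIs, which allows up to 2.39 CPM in SD and 2.05 in SD+RS (3 counts over the group). Avpr1a, a vasopressin receptor, had UMIs in 9 of 30 and 12 of 36 cells at 7.17 and 9.55 CPM against 3.38 and 3.42, too few to be tested.

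Channels and receptor subunits were counted beside the 4.52% and 6.27% of all tested genes called higher and lower. Of 21 tested channels and chloride transporters 2 were called higher and 8 lower, and of 21 tested glutamate and GABA receptor subunits 1 higher and 5 lower. Scn9a, a sodium channel, was at 142 and 140.5 CPM against 52.3 and 54.5, and was called higher. Those called lower included Kcnc1, Kcnn2, Scn1a, Scn8a, Cacna1d, Cacna1g and the chloride exporter Slc12a5 among channels, and Gria2, Gabra5, Gabbr2, Glra2 and Glrb among subunits. With all UMIs in the denominator 0 subunits were called higher and 12 lower. Genes that magnocellular neurons are known to raise under osmotic load included Caprin2, an RNA-binding protein that binds Avp RNA, at 127 and 147 CPM against 8.40 and 8.52, and the AP-1 gene Fosl2 at 61.4 and 81.9 against 6.74 and 3.94, and 4 of 9 tested genes of that list, Nos1 and Pcsk1 included, were called higher and 2 lower.

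The genes farthest above other neurons were rare elsewhere. By rank of the smaller ratio they were Cela1, Dnmt3l, Mdfic, AA467197, Trac, Smim3, Prph, Casp1, Hacd4, Ptger4, Dmkn, Chil1, Sim1, Nnmt and Nog, and all but Sim1, which belongs to the gate, were also called against the other Otp or Sim1 neurons. Cela1, a chymotrypsin-like elastase, lies on chromosome 15 from 100674421 to 100687921 on the minus strand and was at 43.8 and 49.1 CPM against 0.187 and 0.147, or 7.87 (7.07 to 8.75) and 8.38 (7.55 to 9.33) on the log2 scale. It had UMIs in 18 of 30 and 25 of 36 cells, against 0.39% and 0.34% of other neurons. Nog (noggin), an antagonist of bone morphogenetic proteins, was at 203 and 162 CPM against 8.06 and 8.05 and was present in 29 of 30 and 36 of 36 cells, the widest spread of the 15 in SD+RS. Ptger4, a receptor of prostaglandin E2, was at 48.6 and 71.6 CPM against 1.61 and 1.70, Nnmt, which methylates nicotinamide, at 68.5 and 90.0 against 2.82 and 3.41, and Dnmt3l, a partner of DNA methyltransferases, at 26.3 and 32.1 against 0.121 and 0.241. Prph, the intermediate filament peripherin, was at 65.4 and 156 CPM against 1.03 and 1.31, yet in 11 of 30 and 22 of 36 cells, all of them Oxt-led.

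The genes farthest below were Isl1, Sox2, Pcdh20, Islr2, Cartpt, Hlf, Tmem215, Rprml, Npy2r and Arhgap36. Isl1, a LIM homeodomain factor of other hypothalamic neurons, was at 2.39 and 1.36 CPM against 59.1 and 55.4, and Sox2 at 1.59 and 2.05 against 43.0 and 48.3. Each of the 10 had UMIs in at least 25% of other neurons and in at most 16.67% of these cells in either library. Islr2, Cartpt, Hlf, Rprml, Npy2r and Arhgap36 were also called lower against the other Otp or Sim1 neurons.

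**Figure D2:**
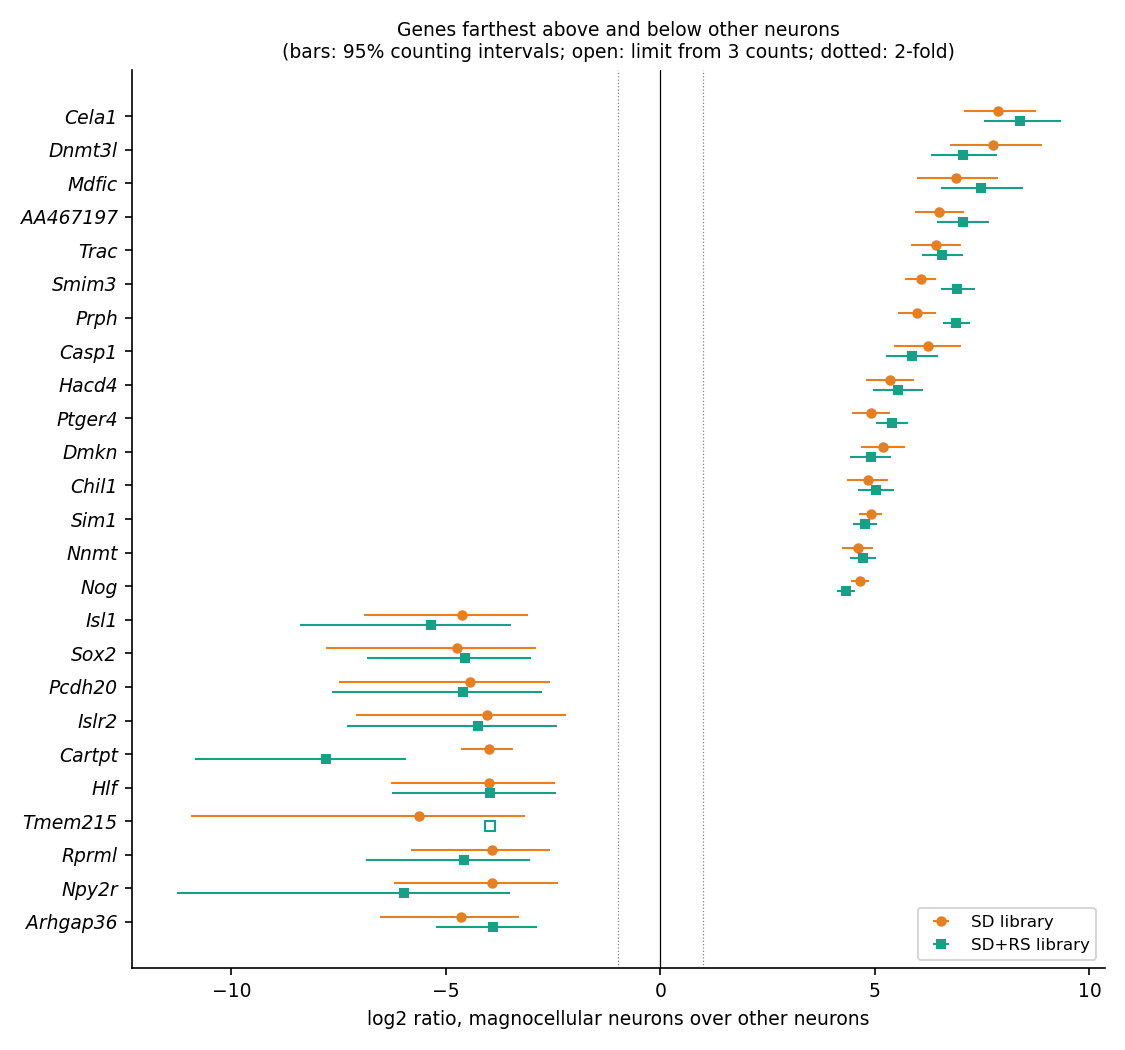
Log2 ratio of CPM in magnocellular neurons over other gated neurons (x axis) for the 15 highest and 10 lowest genes (y axis), with circles for SD and squares for SD+RS. Bars are 95% counting intervals, open symbols are limits from 3 counts, and dotted lines mark 2-fold. Cela1 leads at 7.87 and 8.38, and the circles and squares of a gene lie on the same side of 0 in all 25 rows.

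Oxt-led and Avp-led cells were then compared within each library. Of 6319 genes tested, 174 were at least 2-fold higher in Oxt-led cells in both libraries (2.75%) and 50 at least 2-fold higher in Avp-led cells (0.791%). A gene needed 20 UMIs in either class of each library, which the more numerous and deeper Oxt-led cells reached at a lower level, so the counts of the 2 directions are not comparable. The leading Oxt-led genes were Smim3, Cckar, Fgf1, Gpc5, Prph, Crip1, Grin2a, A830018L16Rik, Adcy2, Trac, Zdhhc22 and Cntn5. Smim3, a small membrane protein, was at 130 CPM in Oxt-led and 6.86 in Avp-led SD cells, and at 129 and 3.70 in SD+RS (log2 4.24 and 5.12). It had UMIs in 19 of 20 and 24 of 29 Oxt-led cells and in 2 of 10 and 1 of 7 Avp-led cells, where no cell had more than 1. The cells of the classes overlapped only at 0 and 1 UMI.

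Receptors, Nos1 and a calcium buffer were on the Oxt-led side. Cckar was at 67.5 against 3.43 CPM in SD and 62.7 against 3.70 in SD+RS. Nos1 was at 285 against 44.6 and 243 against 44.3 (log2 2.68 and 2.46), with UMIs in every Oxt-led cell, from 113 to 437 CPM in SD and from 50.8 to 581.5 in SD+RS, against 0 to 108 and 0 to 128 in Avp-led cells. Its SD ranges did not overlap. Calb2 (calretinin), a calcium buffer, was at 678 against 124 and 686 against 73.9 CPM. Oprk1 was at 193 against 41.2 and 176 against 55.4, and Prlr, the receptor of prolactin, at 50.9 against 13.7 and 49.4 against 0. Adcyap1, the precursor of PACAP, was at 41.5 and 42.7 CPM in Oxt-led cells and had 0 UMIs in all 17 Avp-led cells. Of the 10 astrocyte genes, 2 were tested and both were called higher in Oxt-led cells: Aldoc at 125 against 30.9 and 115 against 18.5 CPM, and Slc1a2 at 59.2 against 17.2 and 68.6 against 11.1, while Gfap and Slco1c1 were at 0. The part of astrocyte RNA in the difference between the classes was not tested.

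On the Avp-led side the leading genes were Ebf3, Dlk1, Gda, C1ql2, Maml3, Zfp804a, Pdyn, Grin3a, Vstm2l, Tcf4, Nrn1 and Cdh9. Ebf3, a transcription factor on chromosome 7 from 137193673 to 137314445 on the minus strand, had UMIs in 9 of 10 and 7 of 7 Avp-led cells, at 151 and 111 CPM, and in 1 of 20 and 1 of 29 Oxt-led cells, at 6.23 and 0.837 (log2 −4.60 and −7.05). Dlk1, a membrane protein of the Notch ligand type, was at 371 and 329 CPM against 25.95 and 4.18, and had UMIs in 9 of 10 and 5 of 7 Avp-led cells. Pdyn was at 439 CPM in Avp-led against 75.8 in Oxt-led SD cells and at 684 against 62.7 in SD+RS cells (log2 −2.54 and −3.45). Its cells ran from 0 to 1090 CPM (median 354) and from 192 to 1274 (median 319) in Avp-led cells, and from 0 to 790 (median 39.9) and 0 to 203 (median 51.9) in Oxt-led cells. Scg2 and Vgf, low against other neurons, were higher in Avp-led than in Oxt-led cells, as were Chga and the convertase Pcsk2, so that 4 of 20 tested processing genes were called on the Avp side and 0 on the Oxt side. Gal was at 2124 against 378 CPM in SD and 961 against 389 in SD+RS, but without the Gal-rich SD cell the Avp-led SD value was 290 CPM, below that of Oxt-led cells. Hcn2, called higher in Oxt-led cells, was no longer called without that cell.

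Several genes named above were not called between the classes. Pcsk1 (log2 −0.05 and −0.75), Kcnmb4 (−0.73 and −0.35), Slc17a6 (0.43 and 0.20) and Th (−0.45 and −0.58) stayed under 2-fold in both libraries, and 0 of 20 tested reticulum genes were called. With 10 and 7 Avp-led cells, differences under 2-fold were not weighed. Xist was lower in Oxt-led cells (log2 −2.13 and −1.17), and 5 of 20 and 24 of 29 Oxt-led cells but 5 of 10 and 7 of 7 Avp-led cells had Xist UMIs only. Among cells with Xist UMIs only, 2719 genes could be tested and 72 and 20 were called, of which 56 and 13 belong to the 174 and 50.

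**Figure D3:**
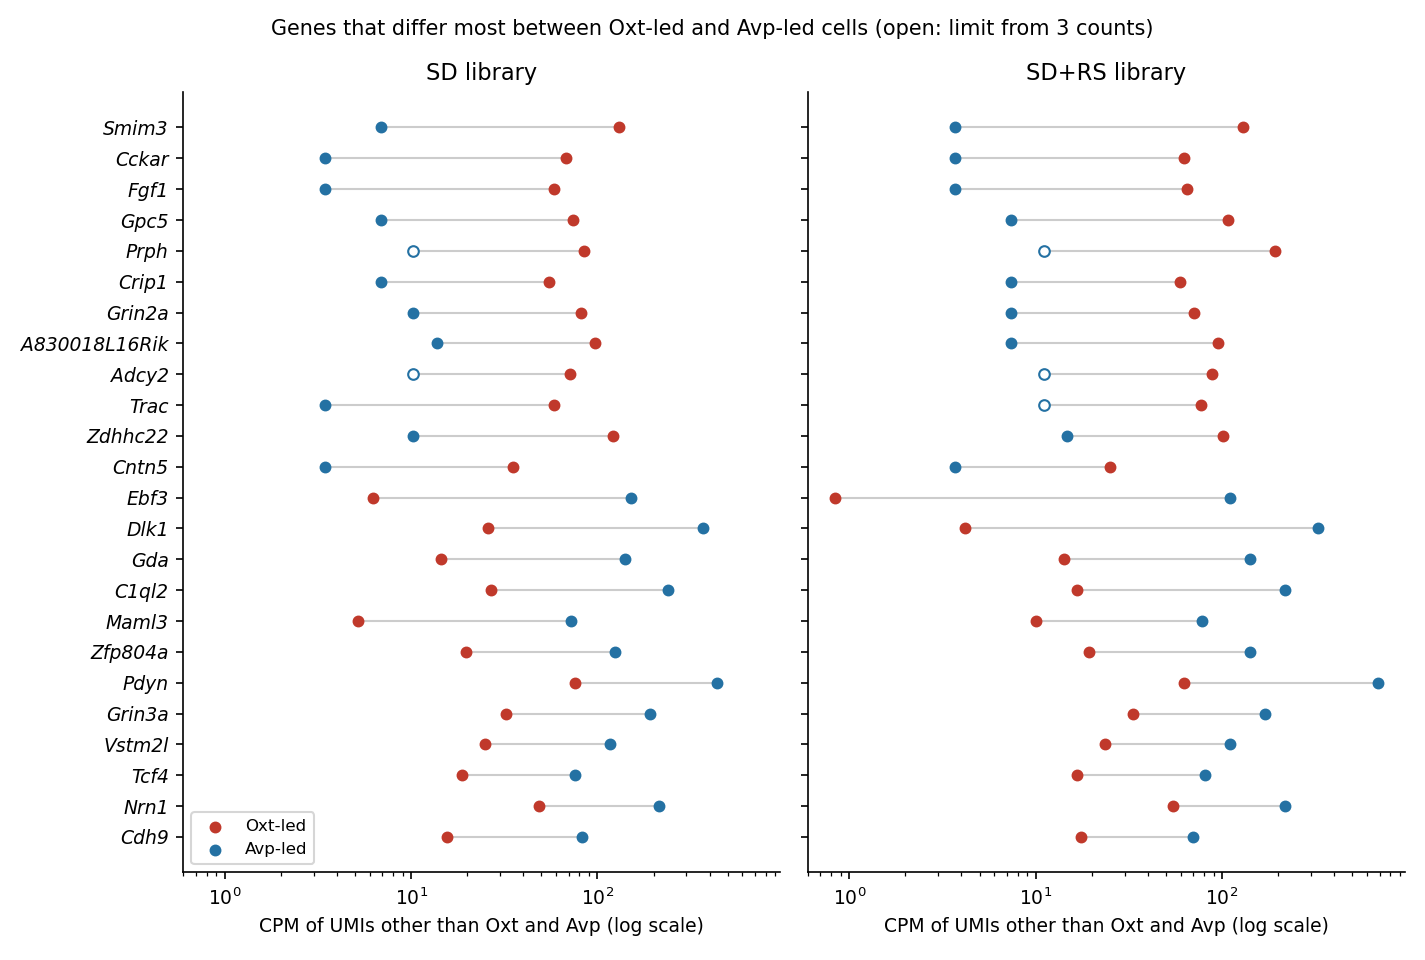
CPM on a log x axis in Oxt-led cells (red) and Avp-led cells (blue) for the 12 leading genes of each class (y axis), in SD (left) and SD+RS (right). Open symbols stand for 0 UMIs and are drawn at the limit of 3 counts. Smim3 to Cntn5 lie to the right in Oxt-led cells, and Ebf3 to Cdh9 in Avp-led cells, in both libraries.

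The Oxt-led cells were not uniform. The splits in this paragraph were chosen after the values were seen and carry no test. Calb2 ran from 0 to 70 UMIs over SD cells and from 0 to 73 over SD+RS cells, with at least 10 UMIs in 16 of 20 and 21 of 29. Those 16 and 21 cells also held most Cckar, in 10 and 16 of them, and most Prph, in 10 and 20, whereas the 4 and 8 cells with under 10 Calb2 UMIs had Prph in 1 and 2 and Cckar in 1 and 2. Nos1 had a median of 13.5 UMIs in the former SD cells and 7.5 in the latter, and 11 and 4 in SD+RS. Gad2 reached at least 10 UMIs in 2 SD and 5 SD+RS cells, the highest with 40. The cell with 40 was the SD+RS cell that had both Xist and Y-linked UMIs. Its Scrublet doublet score, 0.191, was the highest of all the magnocellular cells, though under the SD+RS threshold of 0.2524. In SD+RS those 5 cells all had Nts UMIs, from 1 to 26, and 1 of them had the lowest Oxt count of all Oxt-led cells, 1792. The 7 cells did not form 1 kind, as the 2 of SD had 31 and 40 Calb2 UMIs, 6 and 9 Slc17a6 UMIs and at most 1 Nts UMI.

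The cells with over 1000 UMIs of both hormones were looked at singly. The Oxt-led SD cell with 8051 Avp UMIs had 28 Pdyn, 88 Gal and 18 Th UMIs and no Calb2, Prph, Cckar or Smim3 UMI, and the Oxt-led SD+RS cell with 3725 Avp UMIs had 8, 56 and 15 and likewise none of the 4. Pdyn and Clic1 were called higher in Avp-led cells, while Gal and Th do not separate the classes without the Gal-rich cell. Clic1, a chloride channel protein, had 5 and 17 UMIs in these cells. It had UMIs in 6 of 10 Avp-led and 2 of 20 Oxt-led SD cells, at 110 against 9.34 CPM, and in 6 of 7 and 13 of 29 SD+RS cells, at 181 against 62.7. The Avp-led SD+RS cell with 9932 Oxt UMIs was mixed, with 67 Pdyn and 8 Clic1 but also 19 Calb2 UMIs. A single Avp-led SD cell carried 18 Penk, 87 Nts and 20 Calb2 UMIs beside 5043 Avp UMIs, which is most of the Nts and all of the Penk in these cells of SD. That cell also had 11 Gad2 and 22 Crh UMIs, and both Xist and Y-linked UMIs. RNA of a second cell in its droplet was not tested beyond the doublet call. These are 1 to 4 cells each and were picked by eye.

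**Figure D4:**
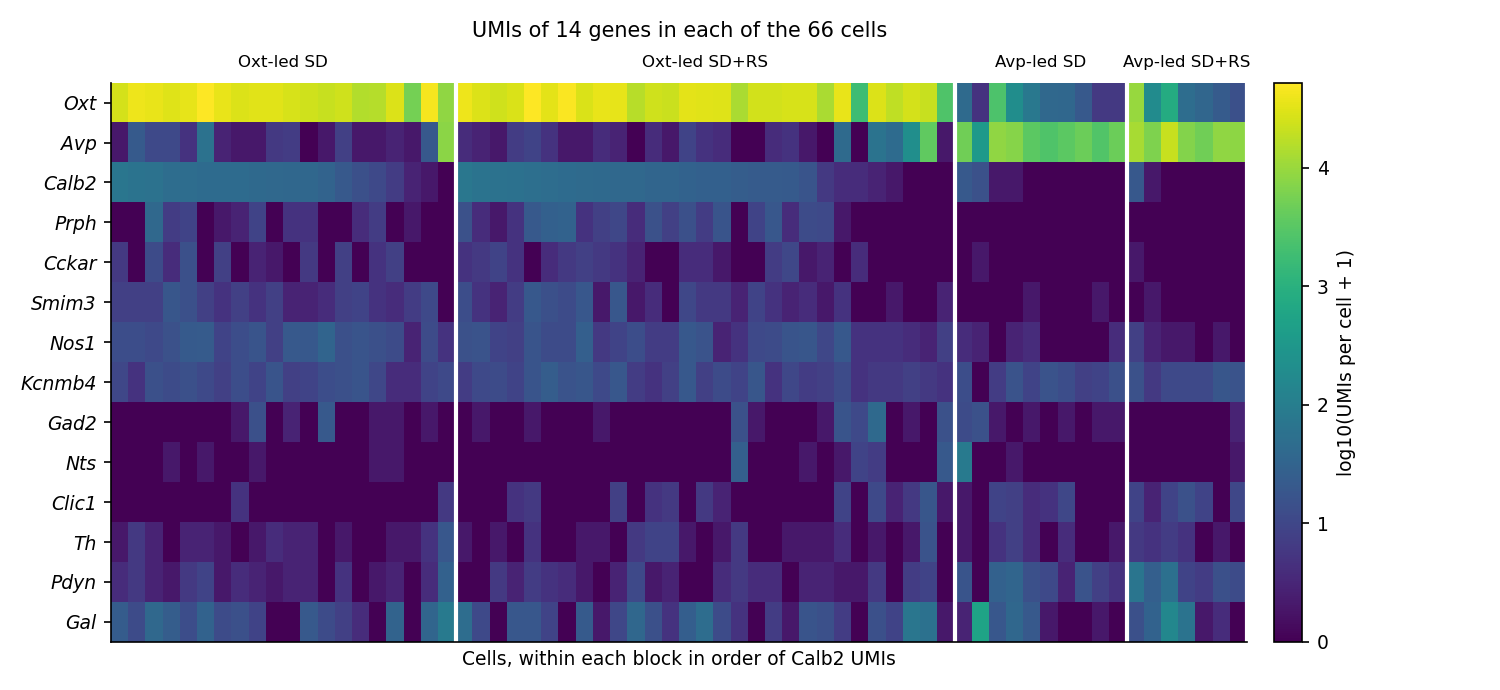
UMIs of 14 genes (rows) in each of the 66 cells (columns) as log10(UMIs + 1), in blocks of Oxt-led and Avp-led cells of each library, ordered within a block by Calb2. Prph, Cckar and Smim3 are found in more of the Oxt-led cells with high Calb2 (Prph in 10 of 16 and 20 of 21) than of those with low Calb2 (1 of 4 and 2 of 8), though Smim3 is also in 3 of the 4 of SD, and no Avp-led cell shows Prph.

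Between the libraries the cells were about equally frequent. They were 0.765% (0.517 to 1.09) of gated neurons in SD and 0.868% (0.608 to 1.20) in SD+RS, and Oxt-led cells were 66.7% (47.2 to 82.7) and 80.6% (64.0 to 91.8) of them, with exact binomial intervals that overlap. As a share of all UMIs, Oxt in Oxt-led cells differed by a log2 ratio of 0.10 (0.10 to 0.11), against a range over cells from 16.3% to 46.0% in SD and from 14.1% to 48.6% in SD+RS. Avp in Avp-led cells differed by 0.64 (0.63 to 0.66), from 12.5% to 19.6%, with cells from 1.81% to 22.1% and from 13.5% to 32.6%. These intervals count UMIs and are far narrower than the spread over cells. Over other UMIs the Avp ratio was 0.81 in all Avp-led cells and 0.45 in those with Xist UMIs only (5 and 7 cells). The Gal-rich SD cell is 1 of those 5 and the one at 1.81%, and the next SD cell was at 8.47%. Without it Avp in Avp-led SD cells was at 153696 CPM in place of 144907, against 253675 in SD+RS, so both ratios would be smaller. No Avp-led SD+RS cell had Y-linked UMIs only. Oxt in Oxt-led cells, over other UMIs, had a log2 ratio of 0.161 (0.157 to 0.166). Within sex it was 0.033 (0.025 to 0.04) in cells with Xist only (5 and 24) and 0.209 (0.199 to 0.22) in cells with Y-linked genes only (11 and 4).

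Immediate early genes are the first genes a neuron turns on after strong firing. The 14 genes of the core list summed to 474 CPM in SD and 697 in SD+RS, against 267 and 266 in other neurons, and Fos, Npas4 and Btg2 were called higher than in other neurons among 7 tested. With all UMIs in the denominator 1 of the 7, Btg2, was called. Without the Gal-rich SD cell Junb was called higher too. The log2 ratio of SD+RS over SD for the sum was 0.56 (0.41 to 0.70) in all cells, 0.79 (0.61 to 0.97) in Oxt-led cells, 0.08 (−0.20 to 0.36) in Avp-led cells and −0.01 (−0.03 to 0.02) in other neurons. Per cell the sum ran from 167 to 1318 CPM (median 343) over 20 Oxt-led SD cells and from 126 to 2052 (median 602) over 29 SD+RS cells. In Avp-led cells it ran from 158 to 2551 (median 395) and from 201 to 1948 (median 472). The cells of the libraries overlapped over nearly the whole range in both classes.

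The direction was not the same in cells of each sex. Among cells with Xist UMIs only, 10 in SD and 31 in SD+RS, the sum was 599 and 766 CPM, a log2 ratio of 0.36 (0.15 to 0.56). Among cells with Y-linked UMIs only, 13 and 4, it was 436 and 236 CPM, a ratio of −0.88 (−1.41 to −0.39), so the direction turned. The 13 hold 2 Avp-led cells and the 4 hold none, and in Oxt-led cells alone the ratio was −0.44 (−0.98 to 0.07) over 11 and 4 cells, an interval that includes no change, and 0.48 (0.22 to 0.74) over 5 and 24 cells with Xist only. The part of the sex mix in the pooled ratio was not tested. Fos, whose protein is a part of AP-1, was at 124 CPM in SD and 193 in SD+RS over all cells (log2 0.64, 0.36 to 0.94), with 0.43 (0.03 to 0.84) in the former set and −0.44 (−1.39 to 0.41) in the latter. A Fos UMI was found in 26 of 30 SD and 35 of 36 SD+RS cells, against 29.0% and 34.4% of other neurons. With each cell thinned to 4000 UMIs other than Oxt and Avp the expected shares were 33.0% and 51.1%, against 12.6% and 13.5% of other neurons and 9.23% and 10.9% of astrocyte-gated cells. No magnocellular cell was too shallow for this, but 8 and 2 other neurons and 1328 and 1078 astrocyte-gated cells were left out.

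**Figure D5:**
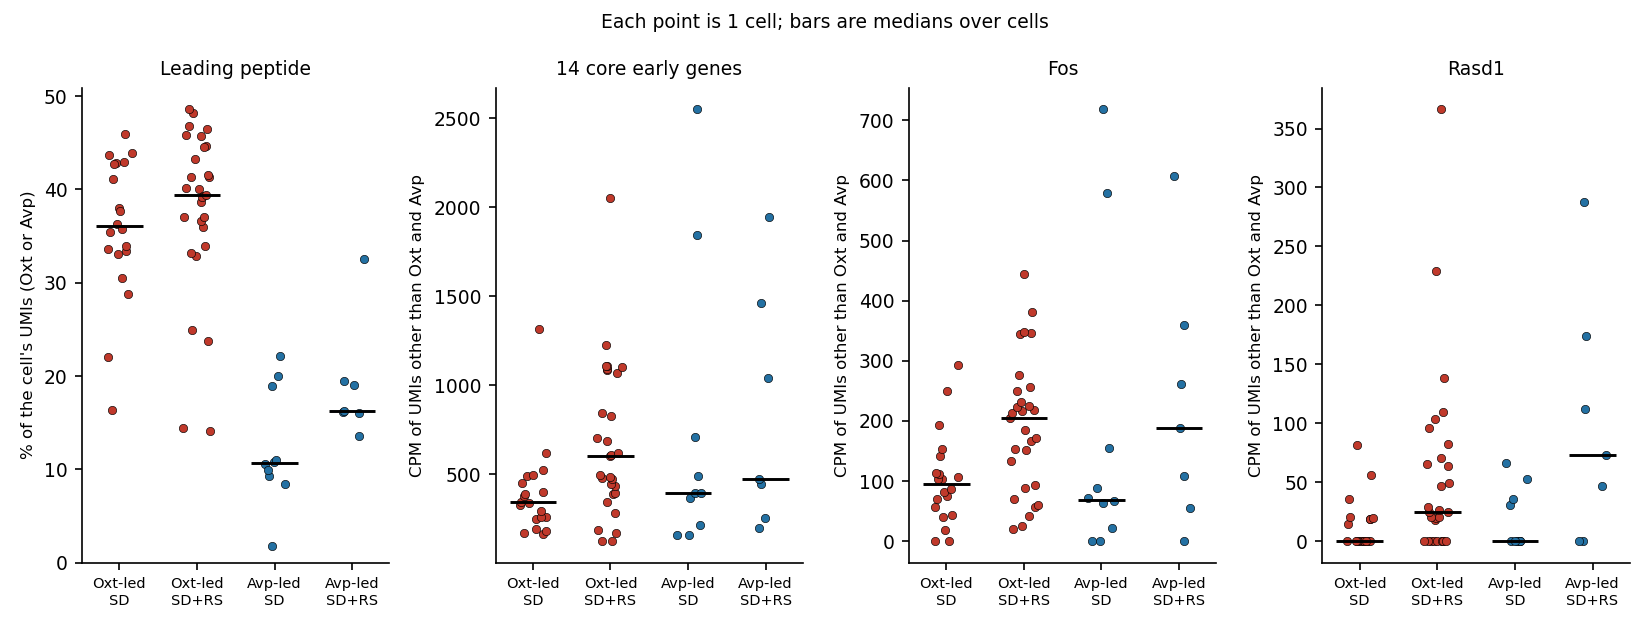
From left to right, the leading peptide as % of a cell's UMIs, and CPM (of UMIs other than Oxt and Avp) of the 14 core early genes together, of Fos and of Rasd1, for Oxt-led (red) and Avp-led (blue) cells of each library. Each point is 1 cell and bars are medians. The medians of the core sum in Oxt-led cells are 343 in SD and 602 in SD+RS, the points overlap widely, and Rasd1 is at 0 in 18 of 30 SD cells.

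Few other genes differed by 2-fold. Of 6897 genes with at least 50 UMIs over both libraries, 27 were at least 2-fold higher in SD+RS (0.391%) and 27 at least 2-fold lower (0.391%), against 37 (0.242%) and 180 (1.18%) of 15286 genes in other neurons. The median log2 ratio was 0.02 in these cells. In Oxt-led cells alone 26 (0.426%) of 6098 genes were higher and 16 (0.262%) lower, and in Avp-led cells alone 15 (0.706%) and 24 (1.13%) of 2124. The highest named genes were Rasd1, Nr4a1, Ddah2, Lmo2, Mthfsd, Clic1, Mvd, Prph, Xist and Fbxo2. Rasd1 (Dexras1), a small GTPase that glucocorticoids and activity induce, lies on chromosome 11 from 59963181 to 59964944 on the minus strand. It had UMIs in 12 of 30 SD and 25 of 36 SD+RS cells, from 0 to 3 and from 0 to 10 UMIs, and was at 13.6 and 60.7 CPM, or 2.16 (1.41 to 3.01) on the log2 scale. Oxt-led cells had 2.15 and Avp-led cells 2.31, against −0.53 in other neurons, and within sex the ratio was 2.41 (1.13 to 4.07) in cells with Xist only and 1.24 (−0.39 to 2.78) in cells with Y-linked genes only. Within sex the other neurons had −0.08 (−0.34 to 0.18) and −0.23 (−0.47 to 0.01), intervals that include no change.

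Nr4a1, an orphan nuclear receptor of the early gene class on chromosome 15 from 101254269 to 101274795, had UMIs in 9 of 30 and 27 of 36 cells, from 0 to 4 and from 0 to 9 UMIs, and was at 11.2 and 47.1 CPM, or 2.08 (1.23 to 3.02) on the log2 scale. Within sex it was 1.76 (0.56 to 3.26) and 1.01 (−1.67 to 3.38). Npas4, another activity gene, was at 17.5 and 37.5 CPM (1.10, 0.36 to 1.88), with 0.83 (−0.16 to 1.96) in cells with Xist only and −1.57 (−7.01 to 1.24) in cells with Y-linked genes only. Egr1 (0.08) and Junb (0.24) of the same list were not called, and the median of its 8 tested genes was 0.71. Lmo2, a LIM-domain adaptor, was at 32.7 and 92.8 CPM, Clic1 at 32.7 and 84.6 and Fbxo2, a ubiquitin ligase subunit that binds glycoproteins, at 72.5 and 168. Of these, Clic1 was higher by 2.75 in Oxt-led and by 0.72 in Avp-led cells, and its ratio turned to −0.84 in cells with Y-linked genes only. Xist, with 1.22, and the Y-linked Ddx3y, with −2.23, stand beside the sex mix given above, and other neurons had 0.94 and −1.34.

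The lowest were Ddx3y, AC149090.1, Dgkk, Amph, Med13l, Rab26os, Slmap, Map3k4, Efna3 and Chd2. AC149090.1 was at 120 CPM in SD and 25.9 in SD+RS, and it was lower in other neurons too (log2 −1.67). Dgkk, a diacylglycerol kinase, was at 29.5 and 9.55, Amph, an endocytic protein, at 31.9 and 10.9, and Map3k4, a stress kinase, at 43.0 and 17.1. Among peptide precursors 1 was called higher, Ghrh at 14.3 and 31.4 CPM, and 1 lower, Tac1, with 60 UMIs in SD and 9 in SD+RS. Without the Gal-rich cell Tac1 had 9 UMIs in each library (log2 −0.25), too few to be tested, so its call ended. Those of Dgkk and Efna3 ended too, as their UMIs fell under the minimum. Vgf, which activity induces in many neurons, was at 93.3 and 145 CPM (0.63, 0.30 to 0.97), under 2-fold.

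Reticulum genes differed between the libraries by small amounts. Manf was at 575 and 719 CPM in these cells (log2 0.32, 0.19 to 0.46) and at 241 and 200 in other neurons (−0.27, −0.29 to −0.24), with 0.30 in cells with Xist only and 0.58 in cells with Y-linked genes only. Sdf2l1 had 0.32 against −0.39, and Dnajb9 0.31 against −0.07. None of the 20 tested reticulum genes passed 2-fold, and their median was 0.05 in these cells and −0.13 over 22 genes in other neurons. None of the 11 tested cytosolic heat shock genes, 8 clock genes or 3 cold-inducible genes was called between the libraries, with medians of −0.21, −0.13 and 0.31.

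In the authors' deposited table of marker genes for the SD library, cluster 25 lists Otp in 98.6%, Sim1 in 77.8%, Oxt in 69.4% and Pdyn in 41.7% of its cells, against 5.6%, 3.5%, 53.4% and 9.7% of the other cells. It also lists Trh in 52.8%, Ghrh in 52.8% and Avp in 27.8%, against 8.6%, 10.7% and 14.1%. Cluster 6 of that library lists Otp in 94.1%, Sim1 in 64.0% and Trh in 84.4% of its cells, and cluster 32 lists Avp in 71.4%. The authors' deposited table for both libraries together lists Otp in 97.8% of cluster e2 and 93.3% of cluster e3. Trh was in 98.9% and 71.1% of the cells of these clusters, and Ghrh in 44.0% and 48.3%. Which cells those clusters hold was not used here. The Oxt shares there are shares of cells with a UMI, to be read beside the 55.5% of other gated SD neurons that had one here.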

How the data were processed

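Each library was deposited as a matrix of UMI counts for genes by cells. Per the file headers it came from Cell Ranger 3.0.2, and the submitters' processing notes name mm10 and Seurat 4.0.4. The authors' deposited marker tables give the share of cells with a gene as a fraction, printed here as a percent. The labels name Act-seq and 10x Genomics for the extraction. Of 31054 gene identifiers 30934 were matched in the gene name table used here. The cells, gene lists and named-gene rule were chosen with earlier results of these data known. Named genes are the 15 highest and 10 lowest against other neurons and the 12 leading genes of each class, ranked by the smaller ratio of the libraries and found in at least 25% of the cells of the higher side. Between the libraries they are the 10 highest and 10 lowest among genes whose interval excludes no change. Other genes come from the lists or are said to be chosen after their values were seen.

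UMIs were summed over cells and divided by all UMIs other than Oxt and Avp. Ratios have exact conditional binomial intervals, shares exact Clopper-Pearson intervals, and sums exact Poisson intervals, at 95%, for counting error only. A gene at 0 UMIs was set at 3 counts over the group. Genes needed at least 20 UMIs per library, found in either class or, against other neurons, expected from their level, and 50 over both libraries for the libraries' ratio. Doublets were called with Scrublet in scanpy 1.11.5 and kept, as the rule does. Calculations used numpy 2.4.6, scipy 1.17.1 and pandas 2.3.3, and the scripts were tested on simulated data. Alternatives changed the gate, denominator, weighting, gene minimum, sex of cells, doublets and lead rule, and 3 were added after seeing the data: leaving out the Gal-rich cell, and Oxt-led or Avp-led cells alone. Some genes of the channel and receptor subunit lists are counted but not reported here.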

Additional observations from a re-analysis of the deposited data

Results flagged for a closer look

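Of 86 genes looked at, 68 were tested in both the magnocellular and the other neurons. Of these, 10 had ratios of SD+RS over SD of opposite sign with both counting intervals off 0. The 86 came from the core early, osmotic, reticulum, cytosolic heat shock and cold-inducible lists and from the genes named above as highest and lowest between the libraries. Those named genes were picked from the same data by their ratio in the magnocellular cells, so 10 of 68 is not a count over the lists alone. The differences between the classes were not tested, since each group was 1 library. In the magnocellular cells the log2 ratios were 2.16 for Rasd1, 2.08 for Nr4a1, 0.64 for Fos, 0.71 for Crem, a cyclic AMP response factor, and 0.88 for the clock gene Per1. In other neurons they were −0.53, −0.23, −0.06, −0.17 and −0.26. The reticulum genes Sdf2l1, Dnajb9, Manf and Xbp1 had 0.32, 0.31, 0.32 and 0.25 in the magnocellular cells and −0.39, −0.07, −0.27 and −0.34 in other neurons. Hspa8, a constitutive heat shock protein, had −0.20 against 0.04. Oxt-led and Avp-led cells went opposite ways in Hspa8 (−0.34 against 0.34) and in Hsp90aa1, a cytosolic chaperone (−0.12 against 0.31). Within cells with Xist UMIs only, Hspa8 in Avp-led cells had 0.03 (−0.16 to 0.22), and Hsp90aa1 had −0.06 (−0.19 to 0.07) in Oxt-led and 0.04 (−0.17 to 0.26) in Avp-led cells, so neither gene kept both intervals off 0. Several of the 10 genes also did not keep opposite signs within a sex. In cells with Y-linked genes only, Fos had −0.44 in magnocellular cells and 0.25 in other neurons, and Crem had −0.71 and −0.04. In cells with Xist only, Nr4a1 had 0.07 in other neurons, with an interval that includes no change. Between magnocellular and other neurons, Manf and Hspa8 kept opposite signs in each sex with every interval off 0. With Xist only given first, Manf had 0.30 and 0.58 against −0.23 and −0.21. Hspa8 had −0.21 and −0.35 against 0.015 and 0.094. Sdf2l1 (0.65 and 0.27 against −0.34 and −0.25), Xbp1 (0.358 and 0.355 against −0.37 and −0.26) and Rasd1 (2.41 and 1.24 against −0.08 and −0.23) also kept opposite signs. For these 3 genes not every interval was off 0.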

How the results depend on the processing

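No paired analysis was possible because each group is 1 library and the labels give no replicate numbers. Of 131 alternative values of the main results, 100 kept their direction and size, 30 moved and 1 turned. Some of these could not move. Thresholds of 50 UMIs, 300 UMIs or 1% of UMIs for Oxt and Avp chose the same 30 and 36 cells. Taking out called doublets removed none of these cells, so values over these cells alone stayed the same. Such values count as kept here and among the single genes below. The shares of these cells among neurons and of Oxt-led cells moved under no alternative run. Against other neurons, the 366 higher and 508 lower genes became 173 and 1935 with all UMIs in the denominator, 214 and 242 in cells with Xist only, 91 and 77 in cells with Y-linked genes only, 226 and 275 at a minimum 2.5 times as high, and 613 and 916 at a minimum of 5 UMIs. Between the libraries, the 27 higher genes became 44 when each cell weighed the same, 66 in cells with Xist only, 6 at the higher and 505 at the lower minimum. The 27 lower genes became 42 with all UMIs, 76 in cells with Y-linked genes only, 1 at the higher and 606 at the lower minimum, and 16 in Oxt-led cells alone. Between Oxt-led and Avp-led cells, 174 and 50 became 99 and 187 with all UMIs, 72 and 20 in cells with Xist only, 77 and 14 at the higher and 276 and 186 at the lower minimum. The core early gene ratio of 0.56 became 0.36 in cells with Xist only, −0.88 in cells with Y-linked genes only, 0.79 in Oxt-led and 0.08 in Avp-led cells. Of 1358 values of single genes 1229 kept, 125 moved and 4 turned: Xist to −0.058 in cells with Xist only, and Clic1 to −0.84, Med13l to 0.087 and Npas4 to −1.57 in cells with Y-linked genes only. Fewer genes reach the minimum in fewer cells; other causes were not tested. Oxt-led against Avp-led cells with Y-linked genes only was not run, since SD+RS had no such Avp-led cell. The limits are 1 library per group, 66 cells of which 17 were Avp-led, an unknown number of mice and a sex mix that differed between libraries.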

Other observations

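Beside the 66 cells, 12 SD and 4 SD+RS barcodes had at least 100 UMIs of Oxt and Avp together but did not pass the neuron gate, and they entered no comparison. The matrices list a YFP sequence, which the labels do not explain. It had 2 UMIs in the magnocellular cells of SD and 0 in those of SD+RS, against 4871 UMIs in 213 other neurons of SD and 231 UMIs in 26 of SD+RS.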
